A study of Mus musculus with 2 samples.

Results

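The genes described here are 10 receptors, ligands and enzymes that hold back immune responses, out of 55536 genes in the expression table of mammary tumors from MMTV-PyVT mice. They were chosen by name, as the rows whose Ensembl identifier carries one of the symbols Pdcd1, Cd274, Pdcd1lg2, Ctla4, Lag3, Havcr2, Cd47, Sirpa, Cd276 and Ido1 in GENCODE mouse release M21, and each symbol matched 1 row. The mice carry the polyoma virus middle T antigen under the mouse mammary tumor virus promoter, so tumors start in the mammary epithelium while the host keeps its own immune system. One group received the vehicle dimethyl sulfoxide (DMSO) and the other cyanidin-3-glucoside (C3G), a plant pigment, from the time of ductal hyperplasia until the tumors reached a preset burden; ages and doses are not named in the labels. RNA sequencing gave 1 library per group, and the labels do not say whether a library came from 1 tumor, 1 mouse or a pool. The libraries held 12192275 reads assigned to genes for DMSO and 16081110 for C3G.

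Immune checkpoints are brakes on T cells and phagocytes. PD-1 (the product of Pdcd1), CTLA-4, LAG-3 and TIM-3 (the product of Havcr2) sit on activated or exhausted T cells. PD-1 is engaged by PD-L1 (Cd274) and PD-L2 (Pdcd1lg2), which tumor cells and myeloid cells display, PD-L1 above all after exposure to interferon-gamma. B7-H3 (Cd276) is a related surface protein found on many tumors. CD47 is a widely expressed signal that tells macrophages not to engulf a cell, and it is read by SIRPA on those macrophages. The enzyme encoded by Ido1 breaks down tryptophan to kynurenine, which restrains T cells, and it too is induced by interferon-gamma.

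With 1 library per group, no difference could be tested against the spread between animals, and no p-value is given. Levels are in TPM, a transcript abundance scaled by gene length and library total, so that levels of different genes can be compared. A ratio is C3G TPM over DMSO TPM, and the range after it is a 95% interval for counting error alone. In bulk tumor RNA, fewer cells of a type and less RNA per cell cannot be told apart. Tumor epithelium was plentiful in both libraries, with Epcam at 1484 TPM (DMSO) and 1399 TPM (C3G). The 15 listed T cell markers summed to 84.1 TPM under DMSO and 30.7 TPM under C3G, and the 13 macrophage markers to 2294 and 2105 TPM. The 7 adipocyte markers summed to 181 and 988 TPM, and the 7 endothelial markers to 28.1 and 77.0 TPM. The part of these markers in the results below was not tested.

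Of the 10 checkpoint genes, Ido1, Cd47 and, on very few reads, Pdcd1 were lower in the C3G library beyond counting error. The other 7 had intervals that included a ratio of 1, which for Ctla4, Pdcd1lg2 and Lag3 also allowed differences of 2-fold or more. None of the 10 genes was called by size, which asks for a higher TPM of at least 5 and a log2 ratio, computed as log2((C3G TPM + 1)/(DMSO TPM + 1)), of at least 1 in size. Only 6 of the 10 reached 5 TPM and could have been called. Among all 12780 genes that reached 5 TPM, 7.40% were called. Without the minimum of 5 TPM, Pdcd1 alone was called (log2 ratio -1.15), where 8.64% of the 26681 genes with any read were. Of those 6 genes, 2 had a counting interval that excluded a ratio of 1, against 62.9% of the 12780. Over all 10 genes the number was 3, against 36.6% of the genes with any read, so neither share was above that of all genes. Of the 10 log2 ratios, 8 were below 0, and the same 8 were below 0.10, the median of all 17468 genes with a mean of at least 1 TPM. The 7 checkpoint genes with such a mean had a median log2 ratio of -0.19. Of these 7, 6 were below 0, Havcr2 by only 0.012, beside 41.1% of the 17468 genes.

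**Figure D1:**
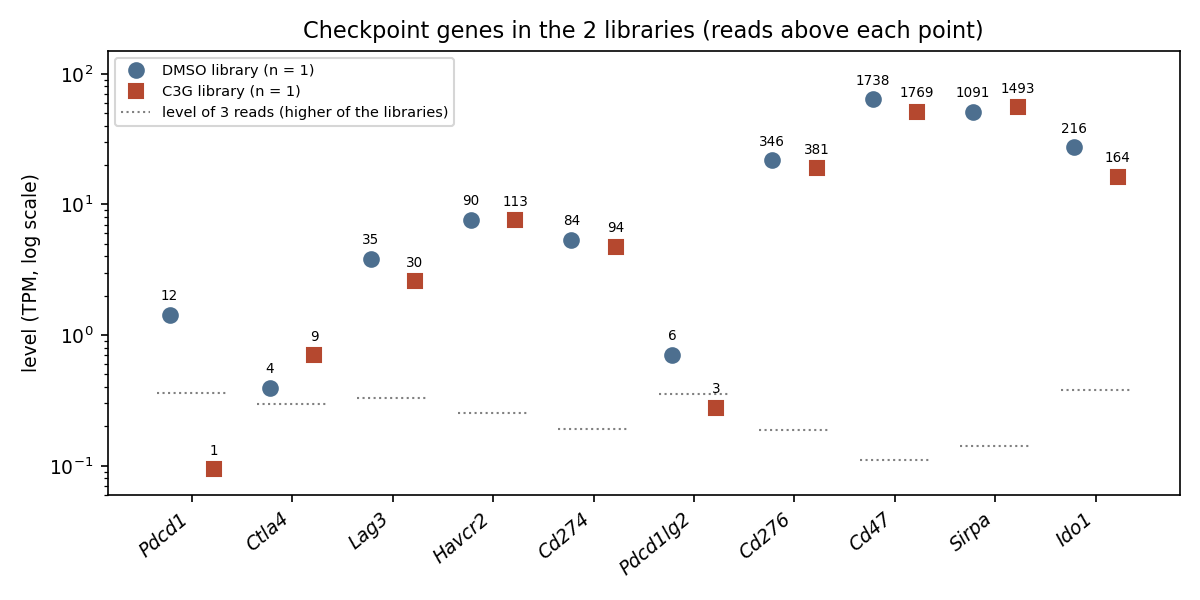
Level of each checkpoint gene in the DMSO library (circles) and the C3G library (squares), in TPM on a log axis, with its reads above the point; dotted lines mark the level of 3 reads. Cd47 and Sirpa stand highest in both libraries, at 51.2 to 63.9 TPM, and Pdcd1, Ctla4 and Pdcd1lg2 stay below 1.5 TPM.

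The levels spanned more than 2 orders of magnitude. In the DMSO library they ran from Cd47 at 63.9 TPM (60.9 to 66.9) through Sirpa, Ido1, Cd276, Havcr2, Cd274, Lag3, Pdcd1 and Pdcd1lg2 down to Ctla4 at 0.396 TPM (0.108 to 1.01). In that order the counting intervals of neighbours overlapped for Ido1 and Cd276, for Havcr2 and Cd274, for Cd274 and Lag3, and among the 3 lowest genes. In the C3G library Sirpa stood first at 55.3 TPM (52.6 to 58.2) and Cd47 second at 51.3 TPM (48.9 to 53.7), with overlapping intervals. There Cd276 and Ido1 had also changed places, again with overlapping intervals, and Pdcd1 was last at 0.0943 TPM. Cd47 and Sirpa together made up 62.7% of the summed TPM of the 10 genes with DMSO and 67.5% with C3G. This pair thus gave most of the signal, and the receptors known from T cells little of it.

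Pdcd1, which encodes the receptor PD-1 (mm10 chromosome 1, 94038305 to 94052553, minus strand), was at 1.43 TPM under DMSO (12 reads) and at 0.0943 TPM under C3G (1 read). The ratio was 0.0658 (0.00154 to 0.444), or 15.2-fold lower (2.25 to 650) with C3G, so that counting error alone allowed anything from a 2.25-fold difference upwards. The level with C3G lay under the 0.283 TPM that 3 reads would give.

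Ctla4, the receptor that competes with CD28 for the ligands CD80 and CD86 and is abundant on regulatory T cells (chromosome 1, 60887000 to 60915832), went the other way in value, at 0.396 TPM under DMSO and 0.703 TPM under C3G. The 4 and 9 reads gave a ratio of 1.78 (0.495 to 7.89), which included 1, so no difference was detectable at this depth. Foxp3, the defining transcription factor of regulatory T cells, had 17 reads with DMSO and 5 with C3G.

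Lag3, a receptor for MHC class II on T cells that natural killer and plasmacytoid dendritic cells also carry (chromosome 6, 124904361 to 124911705), had 3.83 TPM under DMSO and 2.59 TPM under C3G. With 35 and 30 reads the ratio was 0.676 (0.401 to 1.13), which included 1. Havcr2, which encodes TIM-3 and is expressed by macrophages and dendritic cells as well as by T cells (chromosome 11, 46454935 to 46481255), was at 7.63 TPM under DMSO and 7.56 TPM under C3G. Its 90 and 113 reads gave a ratio of 0.991 (0.744 to 1.32). The 4 receptors therefore did not share a direction in value: Pdcd1 and Lag3 were lower with C3G, Ctla4 higher and Havcr2 close to 1, and of the 4 only Pdcd1 had an interval clear of 1.

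The receptors were then set against the Cd3 genes, in a comparison chosen after these values had been seen. The invariant T cell receptor chains Cd3d, Cd3e and Cd3g together had 118 reads with DMSO and 54 with C3G, or 9.21 and 3.54 TPM. Per Cd3 read, 8 of the 10 checkpoint genes were 1.66-fold to 4.92-fold higher in value with C3G, including genes known from other cells, such as Sirpa at 2.99-fold (2.13 to 4.25) and Cd276 at 2.41-fold (1.67 to 3.49). Among the receptors, Havcr2 was 2.74-fold higher per Cd3 read (1.76 to 4.30), Ctla4 4.92-fold (1.29 to 22.6) and Lag3 1.87-fold (0.998 to 3.49), the last with an interval that reached 1. For Pdcd1 the ratio per Cd3 read was 0.182 (0.00418 to 1.30), so that its lower level was not separable, at this depth, from the lower level of the Cd3 genes. These values carry the lower Cd3 level itself and depend on the T cell markers chosen. Lck, of the same marker list, had a ratio of 0.738 (0.543 to 1.001) on 92 and 86 reads. Cd2 had one of 0.164 (0.0771 to 0.317) on 53 and 11 reads. References other than T cell markers also gave other values. Against Ptprc, a marker of all leukocytes, Ctla4 was at 2.14 (0.592 to 9.57), Lag3 at 0.816 (0.476 to 1.39) and Havcr2 at 1.19 (0.872 to 1.64), all with intervals that included 1. Against the macrophage genes Adgre1, Csf1r and Cd68, which together had 123 TPM under DMSO and 127 TPM under C3G, these 3 receptors were at 1.88 (0.522 to 8.35), 0.715 (0.422 to 1.20) and 1.05 (0.779 to 1.41). Pdcd1, on 12 reads with DMSO and 1 with C3G, was at 0.0793 (0.00185 to 0.541) against Ptprc. Against the macrophage genes it was at 0.0695 (0.00162 to 0.471), so both of these intervals lay below 1. Against Foxp3 alone, Ctla4 was at 7.65 (1.32 to 47.8), on 4 reads of Ctla4 with DMSO and 5 of Foxp3 with C3G.

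**Figure D2:**
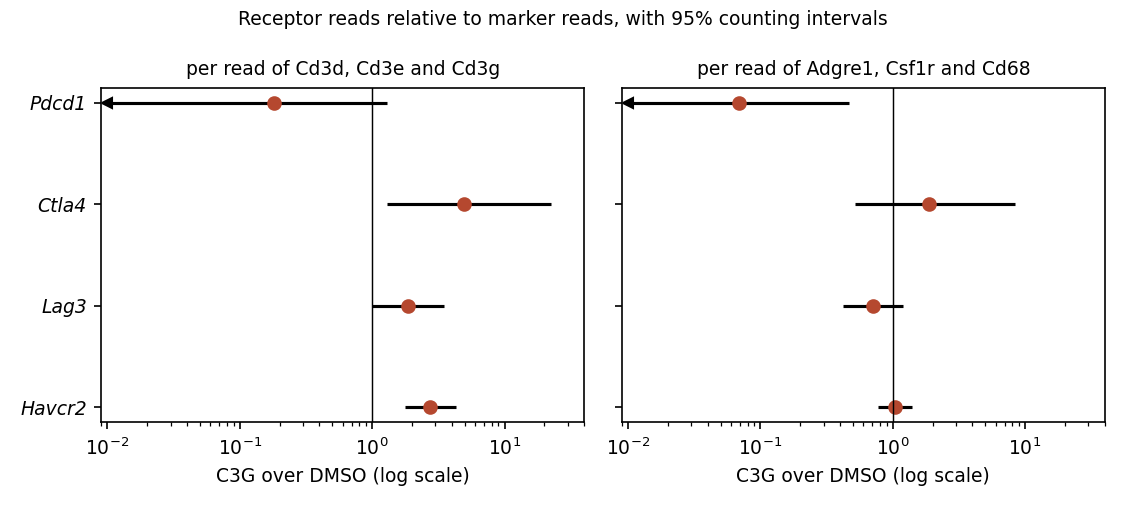
Reads of 4 checkpoint receptors per read of the Cd3 genes (left) or of 3 macrophage genes (right), as C3G over DMSO on a log axis with 95% counting intervals; an arrow marks an interval that runs off the axis. Relative to Cd3 reads, Havcr2 and Ctla4 lie above 1 with intervals clear of 1, while Pdcd1 lies below 1 with an interval that includes it. Relative to the macrophage genes, only Pdcd1 has an interval clear of 1, below it.

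Among the ligands, Cd274 and Pdcd1lg2 are neighbours on chromosome 19, transcribed from the same strand and 22823 bases apart, and the interferon-gamma receptor kinase gene Jak2 lies 54374 bases upstream of Cd274. The 250 bases before each RefSeq start site are shown because both ligands are known as cytokine-induced genes, and 3 inducible motifs were searched there on both strands. They were the gamma-activated site TTCNNNGAA, the interferon-stimulated response element core GAAANNGAA, which interferon regulatory factors bind, and the NF-kB site GGGANNNCC. The sequences are from RefSeq on GRCm38.p6, plus strand, at chr19:29367188-29367437 for Cd274 and chr19:29410669-29410918 for Pdcd1lg2, and capitals mark a motif match.
Cd274: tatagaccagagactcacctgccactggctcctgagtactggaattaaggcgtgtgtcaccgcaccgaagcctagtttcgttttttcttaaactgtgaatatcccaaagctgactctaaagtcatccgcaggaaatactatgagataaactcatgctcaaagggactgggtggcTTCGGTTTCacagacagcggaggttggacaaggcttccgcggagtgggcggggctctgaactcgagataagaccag
Pdcd1lg2: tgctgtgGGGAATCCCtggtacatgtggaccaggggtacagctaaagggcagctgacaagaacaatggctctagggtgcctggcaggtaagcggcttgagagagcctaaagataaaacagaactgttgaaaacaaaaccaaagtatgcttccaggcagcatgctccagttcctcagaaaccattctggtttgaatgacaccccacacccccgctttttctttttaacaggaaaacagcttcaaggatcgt
Cd274 held 1 match, to the response element on the opposite strand, 76 to 68 bases before the RefSeq start, which lies 17 bases before the GENCODE start given below. Pdcd1lg2 held 1, to the NF-kB letters, which the same bases matched on both strands, 243 to 235 bases before the start. Of 32851 promoter windows of this length, 7.13% held the response element, 15.8% the NF-kB letters and 7.02% the gamma-activated site. Promoters were found for 7 of the 10 checkpoint genes, in 8 windows. Ctla4 also held the response element and Cd276 the NF-kB letters, and the other 3 held no match. The Ctla4 window with the match starts at 60908775, inside the GENCODE span of that gene (60887000 to 60915832). The patterns of the response element and NF-kB replaced others 1 letter longer, for NF-kB one with a wider gap, after those had been searched. The earlier response element, held by 2.98% of windows, was in none of these promoters, and the earlier NF-kB pattern, held by 17.6%, only in that of Pdcd1lg2. A match is a description of letters, and its absence says only that these letters are not in this window.

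Cd274, the gene of PD-L1 (29367455 to 29388095), was at 5.35 TPM under DMSO and 4.72 TPM under C3G. The 84 and 94 reads gave a ratio of 0.883 (0.651 to 1.20), within counting error of 1. A gene on the opposite strand overlaps 511 of the 3622 exonic bases of Cd274, and this library kit does not mark strand, so some reads may belong to that gene. Pdcd1lg2, the gene of PD-L2 (29410919 to 29471161), had 0.706 TPM under DMSO and 0.278 TPM under C3G, or 6 and 3 reads. Its ratio of 0.395 (0.0638 to 1.85) included 1, and the C3G level was exactly that of 3 reads. For PD-L1 RNA, counting error thus allowed anything from a 1.54-fold lower to a 1.20-fold higher level with C3G.

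Cd276, the gene of B7-H3 (chromosome 9, 58524298 to 58555437, minus strand), was measured well, at 21.8 TPM under DMSO and 18.95 TPM under C3G. On 346 and 381 reads the ratio was 0.869 (0.749 to 1.01), just including 1. A gene on the other strand overlaps 416 of its 3658 exonic bases. In both libraries Cd276 RNA stood above that of the PD-1 ligands.

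**Figure D3:**
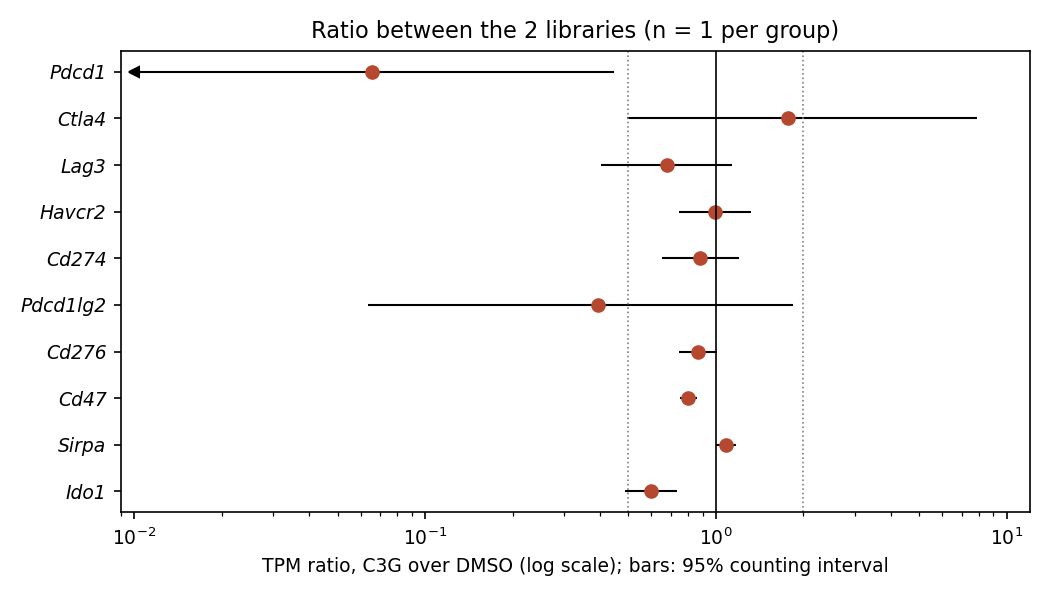
TPM ratio of each checkpoint gene, C3G over DMSO, on a log axis with 95% counting intervals; dotted lines mark a ratio of 0.5 and of 2, and an arrow an interval that runs off the axis. Ido1, Cd47 and Pdcd1 have intervals below 1, and the other 7 intervals include 1.

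The CD47 and SIRPA pair was measured with the most reads. Cd47 (chromosome 16, 49800533 to 49915010) was at 63.9 TPM under DMSO and 51.3 TPM under C3G, on 1738 and 1769 reads. The ratio was 0.803 (0.751 to 0.859), or 1.25-fold lower with C3G (1.16 to 1.33). Sirpa, its receptor on macrophages (chromosome 2, 129592835 to 129632228), was at 51.2 TPM under DMSO and 55.3 TPM under C3G, on 1091 and 1493 reads. Its ratio was 1.08 (0.998 to 1.17), and its log2 ratio of 0.11 was at the median of all genes; centring on genes with a mean of at least 10 TPM turned it to -0.011, and removing the trend with gene length to -0.035. Reads of Sirpa may be shared with its close relatives Sirpb1a, Sirpb1b and Sirpb1c, each under 3 TPM in both libraries. Cd47 reads per Sirpa read were 0.744 of the DMSO value in the C3G library (0.670 to 0.825), a contrast that does not depend on how the libraries were scaled. Per Ptprc read, Cd47 was at 0.969 (0.838 to 1.12), where Ptprc itself stood at 5.94 TPM under DMSO and 4.93 TPM under C3G. Per read of the macrophage genes Adgre1, Csf1r and Cd68, Cd47 was at 0.849 (0.770 to 0.936). Per read of the epithelial genes Epcam, Cdh1 and Elf5 it was at 0.829 (0.774 to 0.888). Per Cd3 read it was higher with C3G, at 2.22 (1.59 to 3.15).

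Genes around this pair lay on both sides of 0. Of 14 listed SIRPA partners and phagocytosis genes, 5 had log2 ratios above 0 and 9 below, none was called by size, and the median was -0.07. The phosphatase Ptpn11, which SIRPA recruits, stood at 25.0 against 29.6 TPM (DMSO against C3G, as in all pairs that follow). Thrombospondin 1 (Thbs1), another ligand of CD47, stood at 154 against 227 TPM, and the engulfment receptor Mertk at 9.57 against 12.7 TPM. Calreticulin (Calr), an eat-me signal when it reaches the cell surface, stood at 1071 against 858 TPM, its receptor Lrp1 at 20.1 against 15.8 TPM and the engulfment receptor Axl at 46.2 against 38.1 TPM.

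Ido1 (chromosome 8, 24584136 to 24597009, minus strand) had the lowest log2 ratio of the 7 checkpoint genes with a mean of at least 1 TPM. It was at 27.3 TPM under DMSO and 16.4 TPM under C3G, on 216 and 164 reads. It was 1.67-fold lower with C3G (1.36 to 2.06), and its log2 ratio of -0.71 was lower than that of all but 9.23% of the 17468 genes. Its neighbour and relative Ido2 had 1 read in each library. Relative to the macrophage genes, Ido1 reads were 0.633 of the DMSO value (0.507 to 0.789), and relative to the epithelial genes Epcam, Cdh1 and Elf5 they were 0.618 (0.501 to 0.761). Both values, like those of Cd47 above, depend on the marker genes chosen. The macrophage genes used had ratios of 1.01 (Adgre1), 0.838 (Csf1r) and 1.11 (Cd68), whereas Aif1 was at 0.631 (0.549 to 0.724) and Cd163 at 1.80 (1.44 to 2.26). Of the 13 listed macrophage markers, 8 had log2 ratios below 0 and 5 above. Epcam, Cdh1 and Elf5 had ratios near 1, whereas Krt18 was at 0.626 and Krt19 at 0.363. Of the 10 listed luminal markers, 7 had log2 ratios below 0 and 3 above. Per Ptprc read, Ido1 was at 0.723 (0.565 to 0.924), and per Cd3 read it was higher with C3G, at 1.66 (1.12 to 2.48).

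The rest of the tryptophan route and the adenosine route, which makes another T cell inhibitor, showed no shared direction. Of 16 listed genes 11 had a mean of at least 1 TPM, with 5 log2 ratios above 0, 6 below, a median of -0.04 and no call by size. The aryl hydrocarbon receptor Ahr, which kynurenine activates, stood at 38.7 against 53.4 TPM, a ratio of 1.38 (1.28 to 1.49). The adenosine-producing ectoenzyme CD73 (Nt5e) stood at 5.74 against 7.83 TPM, a ratio of 1.36 (1.15 to 1.62). Its partner CD39 (Entpd1) stood at 23.5 against 21.2 TPM, adenosine deaminase (Ada) at 15.6 against 14.6 TPM, the tryptophanyl-tRNA synthetase Wars at 38.2 against 36.5 TPM and the kynurenine aminotransferase Kyat1 at 53.3 against 55.0 TPM. The genes at the 2 ends of the list, both under 5 TPM, were named after their values were seen. Kmo was lowest, with 48 against 25 reads and a ratio of 0.411 (0.243 to 0.680). Adora2b was highest, with 6 against 19 reads and a ratio of 2.50 (0.959 to 7.64).

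The interferon-gamma pathway, known to induce PD-L1 and IDO1, had 2 target genes called lower with C3G and members on both sides of 0. Of 21 listed genes 20 had a mean of at least 1 TPM, 13 of them with log2 ratios below 0 and 7 above, with a median of -0.23 against 0.10 for all genes. The chemokine Cxcl9, at 13.8 against 5.55 TPM, and the GTPase Gbp2, at 132 against 61.5 TPM, were the 2 of 19 genes reaching 5 TPM that were called lower, where 4.30% of all genes were. The regulatory factor Irf2 was at 27.5 against 15.8 TPM and the MHC class I activator Nlrc5 at 19.7 against 11.1 TPM. Cmtm4, which protects PD-L1 protein from degradation, was at 11.4 against 17.1 TPM. Other genes, named after their values were seen, included 3 with ratios above 1, Jak1 at 1.12 (1.06 to 1.19), Jak2 at 1.19 (1.06 to 1.33) and the feedback inhibitor Socs3 at 1.20 (1.10 to 1.30). Genes named in the same way that were lower with C3G included Socs1 at 0.542 (0.300 to 0.963), Ciita at 0.751 (0.620 to 0.909) and Ptpn2 at 0.794 (0.728 to 0.867). Irf8, at a ratio of 0.803, and Irf1, at 0.883 (79.3 against 69.98 TPM), also had intervals below 1. Intervals included 1 for the receptor chains Ifngr1 (55.7 against 58.5 TPM) and Ifngr2 (54.0 against 53.96 TPM). The same held for Cmtm6, the main stabiliser of PD-L1 protein (110.0 against 111 TPM). Ifng itself had 6 reads with DMSO and 0 with C3G, where 3 reads would be 0.422 TPM. Of the interferon-induced checkpoint genes, Ido1 had a ratio of 0.599 (0.486 to 0.737), with an interval clear of 1, and Cd274 one of 0.883, with an interval that included 1; the difference between these ratios was not tested.

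**Figure D4:**
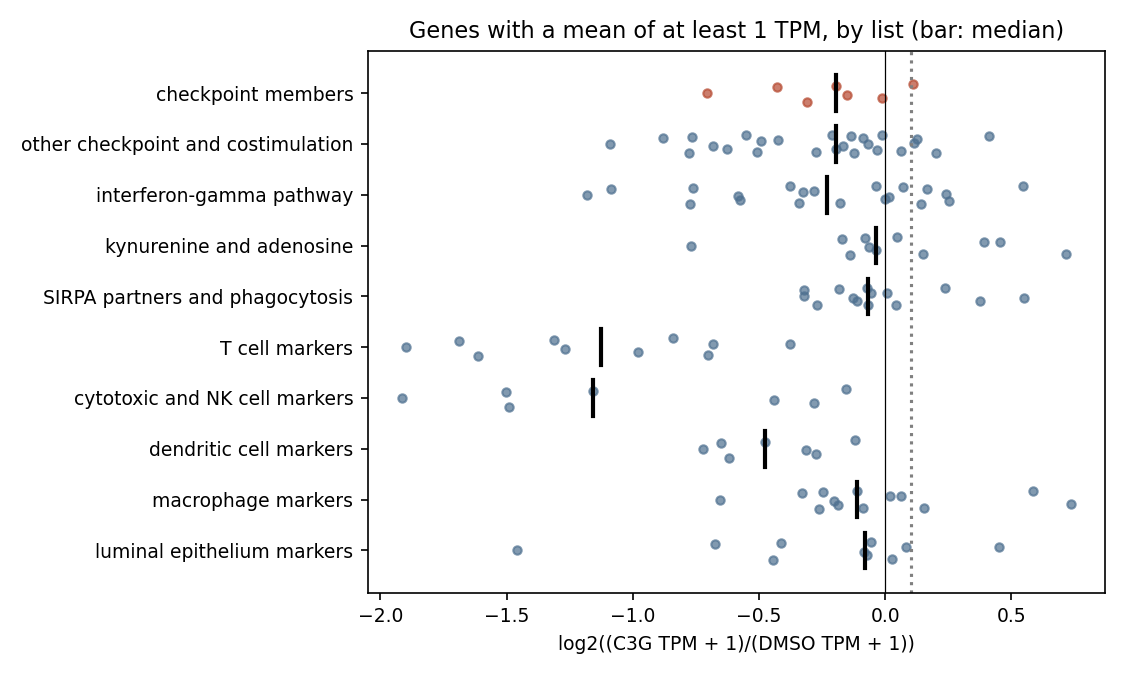
Log2 ratio of each gene with a mean of at least 1 TPM, by list; black bars are list medians and the dotted line is the median of all 17468 genes at 0.10. The checkpoint genes lie from -0.71 to 0.11 with a median of -0.19, near the other checkpoint list, and T cell markers have a median of -1.12.

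A wider list of 36 checkpoint and costimulation genes had a median log2 ratio of -0.19 over the 25 with a mean of at least 1 TPM, beside -0.19 over the 7 of the 10 genes above with such a mean and -0.25 over all 10. Of these 25, 20 were below 0 and 5 above, against 41.1% below 0 among all genes with such a mean, and none of the 12 that reached 5 TPM was called. Cd200, a ligand that restrains myeloid cells, stood at 66.2 against 40.8 TPM, a ratio of 0.617 (0.560 to 0.680). Galectin 9 (Lgals9), a ligand of TIM-3, stood at 249 against 169 TPM, a ratio of 0.681 (0.641 to 0.723), where Havcr2 was at 0.991. Cd86, a ligand shared by CD28 and CTLA-4, stood at 8.38 against 5.67 TPM, a ratio of 0.676 (0.522 to 0.875). The other CTLA-4 ligand, Cd80, named after its values were seen, had 35 reads against 10, at 2.18 and 0.491 TPM, a ratio of 0.225 (0.0996 to 0.465). OX40 (Tnfrsf4) stood at 6.25 against 4.3997 TPM, GITR (Tnfrsf18), a receptor abundant on regulatory T cells, at 8.02 against 10.99 TPM and the myeloid inhibitory receptor Lilrb4a at 6.001 against 5.05 TPM. Each of these last 3 ratios had an interval that included 1.

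Markers of other cells in the same libraries went both ways. The 10 T cell markers with a mean of at least 1 TPM all lay below 0 on the log2 scale (median -1.12), as did the 7 such markers of cytotoxic and natural killer cells (median -1.16). All 7 dendritic cell markers with such a mean were below 0 as well, with a median of -0.48. Without that minimum the medians were nearer 0, at -0.84 over all 15 T cell markers. They were -0.44 over the 11 cytotoxic and natural killer markers and -0.31 over the 9 dendritic cell markers. Cd6, Klrb1c and Xcr1, each under the minimum, lay above 0, at 0.01, 0.04 and 0.06, on at most 21 reads in a library. Macrophage markers had a median of -0.11, with a range from -0.65 to 0.74. Luminal epithelial markers had a median of -0.08, with a range from -1.46 to 0.45. Adipocyte markers, with a median of 2.28, and endothelial markers, with a median of 1.22, went the opposite way. Which cells carried each transcript was not measured.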

How the data were processed

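RNA from MMTV-PyVT mammary tumors was extracted with RNeasy Plus columns and made into TruSeq RNA version 2 libraries, per the labels' protocols. The deposited values are TPM, which the authors made with Trimmomatic 0.38 and featureCounts 2.0.0 on build mm10, per the submitters' processing notes; no aligner is given in the sources used here. All 55536 identifiers matched GENCODE M21. TPM times exon-union length gave whole multiples of 1 step (within 0.01) for 100% of values above 0, taken as reads. Ratio intervals are exact conditional 95% intervals of these reads, level intervals are exact Poisson ones, and ratios per marker read are plain ratios of reads with conditional intervals of the odds ratio. All cover counting error only, since each group has 1 library. Reads carry no molecular identifiers, so copies of 1 molecule may count as separate reads, and the intervals may then be too narrow. At a mean of 1 to 5 TPM the ratio interval typically reached 1.97-fold to either side, and from 20 to 70 TPM 1.11-fold. The pseudocount was 1 TPM. No count test was run. The procedure was tested on simulated data. The genes and lists were chosen with earlier results of these data known. Named genes are the 10 members, and up to 6 per further list with a higher TPM of at least 5 and the largest log2 ratio in size; exceptions are stated, and 1 gene that the rule names is not reported here. Alternatives changed the pseudocount, the filter, the scaling and the length trend. Python 3.11.15, numpy 2.4.6, pandas 2.3.3, scipy 1.17.1 and matplotlib 3.10.9 were used.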

Additional observations from a re-analysis of the deposited data

How the results depend on the processing

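The median log2 ratio of the checkpoint genes stayed between -0.31 and -0.16 under the 8 alternatives, 1 of which, a minimum of 50 reads in both libraries together, was chosen after seeing the data. No member was called under 7 of the 8; with no filter on low values 1 was called, Pdcd1, where 8.64% of all genes with a read were. The log2 ratio of Pdcd1 depended on the treatment of its 13 reads: it was -2.98 with a pseudocount of 0.1 TPM, -0.34 with 5 TPM and -1.46 after rescaling without mitochondrial and the 50 most abundant genes. That of Pdcd1lg2 was -1.09 with a pseudocount of 0.1 TPM. Centring gave -0.43 for Cd47 and -0.011 for Sirpa, and removing the length trend -0.49 and -0.035. Sirpa was the only member to change sign. The medians of the other 3 lists in the comparison stayed below 0, at -0.33 to -0.13 for other checkpoint genes, -0.35 to -0.11 for interferon-gamma genes and -0.16 to -0.01 for kynurenine and adenosine genes. Depth limits Pdcd1, Ctla4 and Pdcd1lg2, each under 15 reads in each library. No paired analysis was possible because each group has 1 library.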
